A study of Mus musculus with 24 samples.

Results

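Col4a1, Col4a2, Lama4, Lama5, Lamb1, Lamc1, Nid1, Nid2 and Hspg2, which encode structural proteins of basement membranes, were described together with Emilin1 over 7 mouse cell lines. They make up 10 of the 45547 gene names on the array, and all 10 were found there through the RefSeq transcript of the probe, on 16 probes. The members were chosen from the array values described here, after Emilin1, Col4a1 and Lamb1 had been seen to differ between the melanoma lines. Their differences are therefore given as a description and without a p-value. Calls of members at a threshold are part of that description and no test of the members. Of the 10 members, 9 were well above background on all arrays of at least 1 line, 3 were so on all 24 arrays, and Nid2 was read on a single array.

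Basement membranes are thin sheets of matrix beneath epithelia and endothelia and around muscle and fat cells. A laminin trimer of an alpha, a beta and a gamma chain assembles at the cell surface, and type IV collagen forms a second network, of which the most widespread form contains the Col4a1 and Col4a2 chains. Nidogens and perlecan, the product of Hspg2, link the networks. EMILIN-1 is a glycoprotein of elastic fibres and of the interstitial matrix rather than a core part of the basement membrane, and cells bind it through integrins with the alpha4 or alpha9 chain.

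Total RNA of 7 mouse cell lines grown in culture was measured on 24 single-colour arrays. B16F1 is a mouse melanoma line, and all 5 melanoma lines carry B16F1 and GFP, green fluorescent protein, in their names. M (3 arrays) is the parental line B16F1-GFP-M. B16F1-GFP-D (D, 4 arrays) was recovered after dormancy from mice of the same strain in an immunotherapy-based model. B16F1-GFP-DB#1 (4 arrays), DB#2 (3) and DB#3 (3) are dormant lines of a further generation from the brain site, as the authors describe them. The myeloid lines M0 (4 arrays) and J365 (3) have no further description in the labels beyond a p20 in their titles, which is not explained there. Each group is a single line expanded in vitro, so a difference between groups is a difference between lines, and nothing in the labels says whether arrays of a line came from separate cultures. In bulk RNA, fewer cells that express a gene and less RNA per cell cannot be told apart.

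All values are normalized log2 signals, that is the log2 of the processed intensity minus the log2 of the 75th percentile of the array, so 1 unit is a doubling. A signal is called read where the scanning software marked it as well above background. The lowest signal read lay between -4.76 and -3.51, depending on the array. The arrays were spread over 3 slides of 8, with every line on every slide. D replicate 3 stood apart, with 90.3% of its spots well above background against 46.0% to 55.8% on the other 23 arrays and a 75th percentile of 574 against 271 to 484. All 7 melanocyte markers were read on all 17 melanoma arrays, with a mean level between 6.83 and 7.74, against -4.18 to -3.78 on the 7 myeloid arrays, where 4 of the 7 had a probe above background on every array. Ptprc, the pan-leukocyte antigen CD45, was read on all myeloid arrays (means of 3.23 in M0 and 3.53 in J365) and on no melanoma array. Of the 7 myeloid markers, 6 were read on every array of both myeloid lines. The list had a mean level of -0.17 to 0.76 on myeloid arrays and of -4.68 to -2.45 on melanoma arrays. Itgam was nevertheless read on all 17 melanoma arrays, with line means of 2.75 to 3.01, against 4.33 in M0 and 4.07 in J365. Csf2rb was read on all arrays of M, DB#1 and DB#2 and on part of those of D and DB#3, with means of -3.12 to -2.54, against 0.94 and 0.66.

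Promoter sequences show how the members are arranged in the genome. A window from 250 bases before to 50 bases after the transcript start was found for 7 members (RefSeq, assembly GRCm38.p6). Col4a1 and Col4a2 lie head to head on chromosome 8, with starts 21 bases apart, on the minus strand at 11312826 and on the plus strand at 11312805. Their windows, chr8:11312777-11313076 and chr8:11312555-11312854, therefore have 78 bases in common (chr8:11312777-11312854), which are in capitals in the Col4a2 window. The windows of Emilin1 (chr5:30913536-30913835, plus strand) and Lamb1 (chr12:31265043-31265342, plus strand) are shown because these genes differed most between the melanoma lines besides Col4a1, and there each CG is in capitals.
Col4a2: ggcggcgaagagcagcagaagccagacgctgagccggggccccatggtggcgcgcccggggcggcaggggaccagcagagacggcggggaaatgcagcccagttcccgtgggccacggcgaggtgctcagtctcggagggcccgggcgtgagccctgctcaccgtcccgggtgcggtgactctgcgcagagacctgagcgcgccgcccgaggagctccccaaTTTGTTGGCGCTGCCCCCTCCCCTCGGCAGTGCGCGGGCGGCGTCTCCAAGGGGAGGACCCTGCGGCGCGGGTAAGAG
Emilin1: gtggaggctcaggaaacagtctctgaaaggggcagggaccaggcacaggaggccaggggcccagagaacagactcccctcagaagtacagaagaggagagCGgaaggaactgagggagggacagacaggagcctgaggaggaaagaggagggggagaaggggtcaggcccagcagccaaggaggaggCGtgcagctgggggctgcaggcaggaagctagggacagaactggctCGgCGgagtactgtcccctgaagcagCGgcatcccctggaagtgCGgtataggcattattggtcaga
Lamb1: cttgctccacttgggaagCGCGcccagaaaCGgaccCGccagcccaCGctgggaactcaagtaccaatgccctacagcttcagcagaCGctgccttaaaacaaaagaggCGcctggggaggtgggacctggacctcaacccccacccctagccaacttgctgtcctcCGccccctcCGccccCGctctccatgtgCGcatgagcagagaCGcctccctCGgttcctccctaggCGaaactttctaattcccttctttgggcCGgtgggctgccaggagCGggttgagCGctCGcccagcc

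The windows differ in base composition. Col4a1 has 37 CG pairs, Col4a2 33, Hspg2 27, Lama5 24, Nid1 20 and Lamb1 18, whereas Emilin1 has 6, close to the median of 7 over all 32851 windows. The GC box GGGCGG, searched on both strands, occurs 5 times for Hspg2, 4 for Lama5, 3 for Col4a2, 2 for Lamb1, 1 for Col4a1 and for Nid1 and 0 for Emilin1, and 35.7% of all windows hold it. TATAAA is in none of the 7 windows (0) and in 13.6% of all. CCAAT occurs once in 5 of them (Col4a1, Col4a2, Emilin1, Lamb1 and Nid1) and in 37.4% of all windows. CATGTG, the core of the M-box known from pigment gene promoters, occurs in the Lamb1 window alone among the members and in 14.2% of all. The counts of Col4a1 and Col4a2 include matches in their common bases.

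Emilin1, the member that separated M from every other line, was not read on any M array and was read on all 21 others. Like Col4a1 and Lama5 it had 1 probe, with no second probe to set beside it. Its signal in M was -6.30, -6.32 and -6.49. In D it was -1.21, -1.20, -0.92 and -1.57. All D arrays were thus far above all M arrays, with no overlap. DB#1 gave -0.18, -0.51, 0.07 and -0.55, DB#2 gave 0.11, 0.21 and 0.21, and DB#3 gave -0.66, -0.64 and -0.26. Every array of the brain-derived lines lay above every D array. Relative to M, Emilin1 was at least 8.38-fold higher in D, 15.9-fold in DB#1, 22.1-fold in DB#2 and 13.7-fold in DB#3. Each of these folds is a lower bound, the mean of the bright line against the mean of, per M array, the lowest signal read there. The measured log2 differences were 5.15 ± 0.21 (SE), 6.07 ± 0.21, 6.55 ± 0.22 and 5.85 ± 0.22. Within the slides, D minus M was 5.29, 5.40 and 4.72.

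Myeloid cells also had Emilin1 signal. M0 gave -1.84, -0.97, -1.55 and -1.57, and J365 gave -1.87, -1.28 and -1.28. These levels overlapped with those of D and with each other, and the myeloid arrays all lay above the M arrays. From high to low the line means ran DB#2 (0.18 ± 0.06, SD), DB#1 (-0.30 ± 0.29), DB#3 (-0.52 ± 0.23), D (-1.22 ± 0.27), J365 (-1.48 ± 0.34), M0 (-1.48 ± 0.37) and M (-6.37 ± 0.11). Neighbours in this order overlapped for DB#1 and DB#3, for D and J365, and for J365 and M0. The other neighbours did not. The average over the 5 melanoma lines was -1.65 and that over the myeloid lines -1.48, a log2 difference of -0.17 ± 0.12 (SE) that was not called. Since the melanoma average includes the unread M signal its sign is not settled, and with normexp background correction the difference was 0.26 and called higher.

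**Figure D1:**
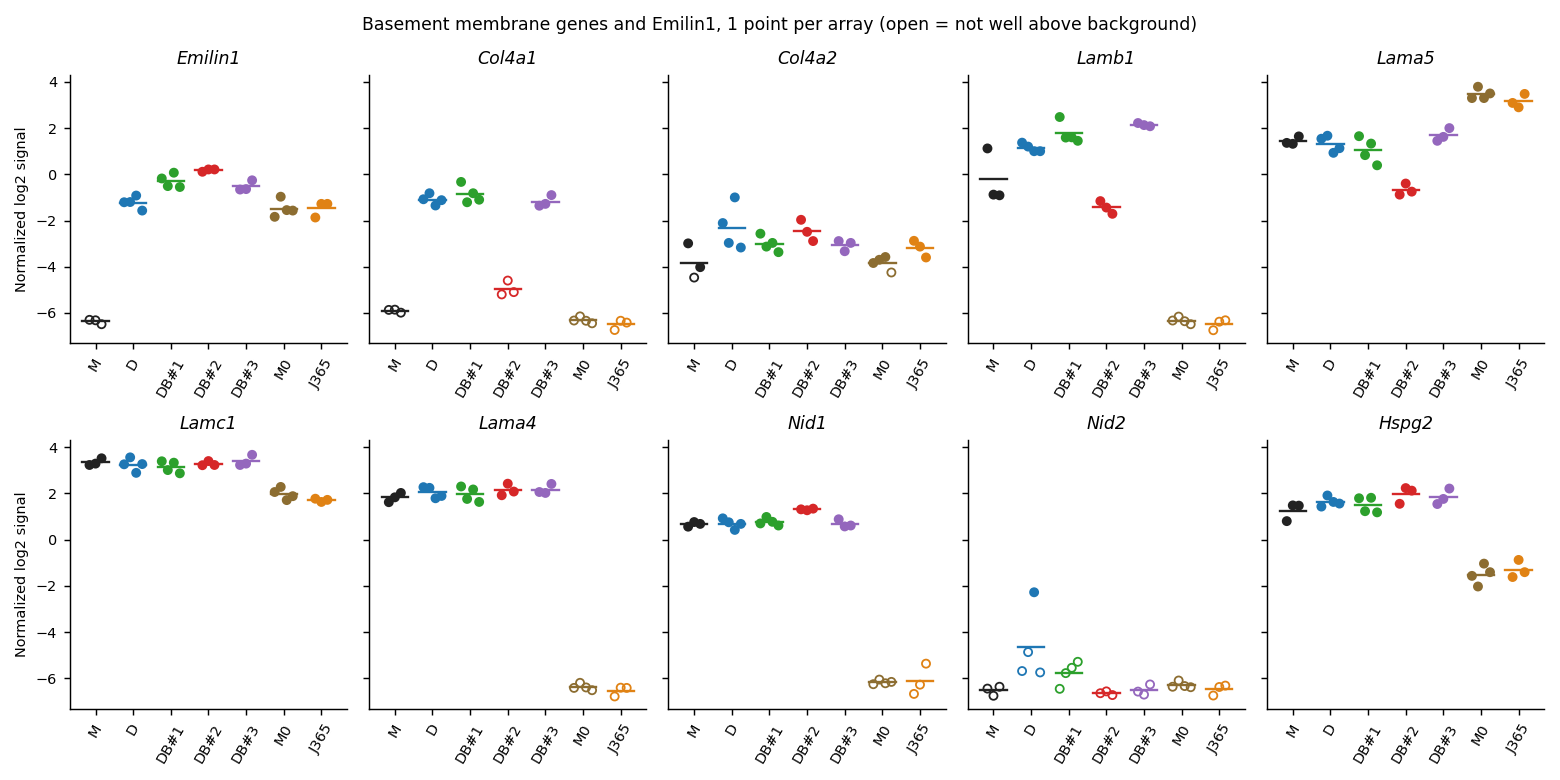
Normalized log2 signal (y axis) of the 10 members on each array, by line (x axis), with filled points well above background, open points not, and a bar at the mean of the line. Emilin1 is open in M alone (-6.49 to -6.30), Col4a1 is open in M, DB#2, M0 and J365, and Lama4, Nid1 and Lamb1 are open in both myeloid lines.

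Col4a1 encodes the alpha1 chain of type IV collagen. Unlike Emilin1 it was absent from the read genes of both M and DB#2. In M its signal was -5.87, -5.86 and -5.99, none of them above background. D gave -1.08, -0.82, -1.35 and -1.12, DB#1 gave -0.33, -1.21, -0.82 and -1.10, and DB#3 gave -1.36, -1.28 and -0.90. These 3 lines overlapped with each other and lay far above M. DB#2 gave -5.20, -4.60 and -5.10, not above background on any array. The myeloid lines, at -6.74 to -6.15, were not above background either. Col4a1 was at least 9.19-fold higher in D than in M, 10.7-fold in DB#1 and 8.64-fold in DB#3, and at least 10.3-fold lower in DB#2 than in D. The measured log2 differences from M were 4.81 ± 0.20 (SE), 5.04 ± 0.20 and 4.72 ± 0.21, and that of DB#2 from D was -3.87 ± 0.20. DB#2 and M were both below background, so no fold is given for them.

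Col4a2, the partner chain transcribed from the adjoining start, did not show these steps. Its 1 probe was dim, with -2.99, -4.47 and -4.02 in M and -2.11, -2.97, -1.0 and -3.17 in D. The groups overlapped, and the highest value belonged to D replicate 3. D minus M was 1.52 ± 0.41 (SE), which came to 1.08 without D replicate 3. On the slides it was 1.49, 3.47 and -0.18. In DB#2, where Col4a1 was not read, Col4a2 was read on all 3 arrays at -1.97, -2.49 and -2.89, above all M arrays by a small gap and 1.38 ± 0.44 (SE) above their mean. DB#1 (-3.37 to -2.57) and DB#3 (-3.33 to -2.89) overlapped with M. In the order of line means, from D (-2.31 ± 0.99, SD) to M0 (-3.84 ± 0.29), every line overlapped with its neighbour. Over the 17 melanoma arrays the Pearson correlation of Col4a1 with Col4a2 was 0.29 (Spearman 0.17), against 0.83 (0.64) with Lamb1. Arrays of 1 line are not independent points, and these values describe mainly how the lines differ.

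Lamb1 encodes the laminin beta1 chain. It was read on all melanoma arrays and on no myeloid array, and its level differed between melanoma lines in the same order on both of its brighter probes. On the brightest probe M gave 1.12, -0.88 and -0.91, so that M replicate 1 lay far above the others. D gave 1.37, 1.20, 1.00 and 1.00, of which the lower values fell under that M array. DB#1 gave 2.48, 1.59, 1.60 and 1.45, DB#3 gave 2.22, 2.13 and 2.08, and DB#2 gave -1.16, -1.44 and -1.71. DB#1 and DB#3 were above all M arrays and DB#2 below them all. The differences from M were 1.37 ± 0.34 (SE) in D, 2.01 ± 0.34 in DB#1, 2.37 ± 0.37 in DB#3 and -1.21 ± 0.37 in DB#2. On slide 3, which held M replicate 1, they were -0.12, 0.40, 1.10 and -2.83.

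A further Lamb1 probe did not set M replicate 1 apart. It gave -2.85, -3.15 and -2.69 in M and -1.21, -1.16, -0.58 and -0.93 in D, so that all D arrays were above all M arrays. On this probe DB#2 gave -2.94, -3.68 and -3.80 and overlapped with M, with a difference of -0.58 against -1.21 on the brightest probe. The differences of D, DB#1 and DB#3 from M were 1.93, 2.54 and 2.90. The remaining probe was dim, above background on no M or DB#2 array and on all arrays of DB#3 alone. Without M replicate 1 the brightest probe gave -0.54 for DB#2 minus M and 2.04 for D minus M, so that the size of the DB#2 difference, which was not called, rested on that array. DB#2 was below D, DB#1 and DB#3 on both brighter probes.

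**Figure D2:**
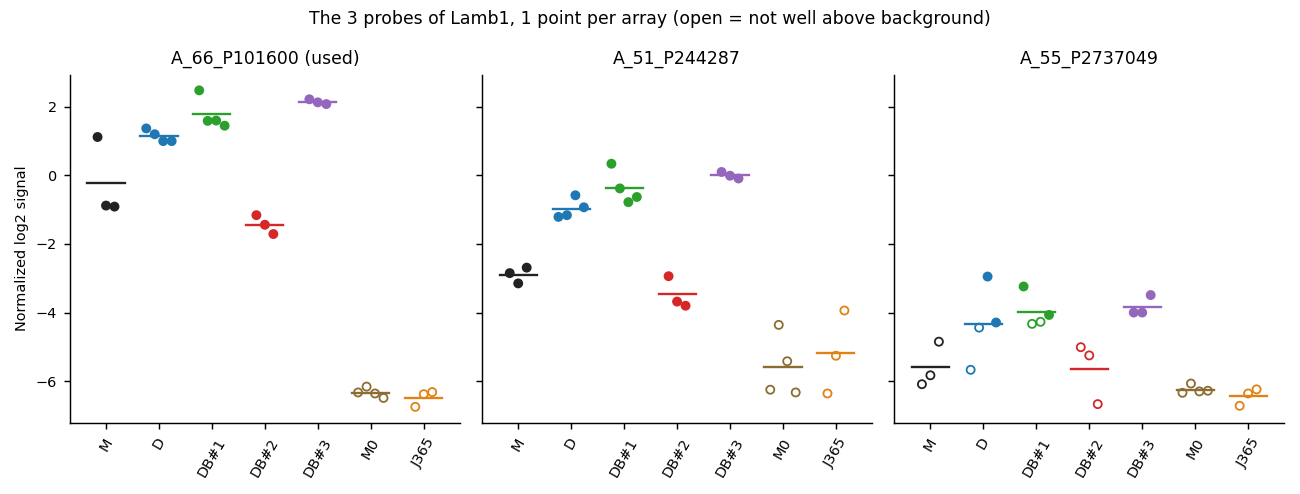
Normalized log2 signal (y axis) of the 3 Lamb1 probes on each array, by line (x axis), with filled points well above background, open points not, and a bar at the mean of the line. M replicate 1 is at 1.12 on the brightest probe, above the other M arrays, and at -2.85 on the next, among them.

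Lama5, which encodes the laminin alpha5 chain, was lower in DB#2 than in any other line. It was 1.36, 1.32 and 1.64 in M, 1.54, 1.67, 0.93 and 1.13 in D, 1.65, 0.83, 1.33 and 0.39 in DB#1 and 1.45, 1.62 and 2.00 in DB#3. DB#2 gave -0.88, -0.40 and -0.75. DB#2 did not overlap with any line, and the other 4 melanoma lines each overlapped with their neighbour in order. The difference between DB#2 and M was -2.11 ± 0.27 (SE), or 4.33-fold, and on the slides it was -2.03, -2.20 and -2.11. The myeloid lines were higher, at 3.30 to 3.79 in M0 and 2.90 to 3.48 in J365, and Lama5 was the 1 member with a higher level in the myeloid lines than in the melanoma lines beyond the range of the arrays, by 2.35 ± 0.15 (SE) log2 units.

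The remaining laminin chains varied little between the melanoma lines, and neither was called against M in D or in any brain-derived line, although Lama4 was called in DB#2 without scaling between arrays, at 0.55. Lamc1, the gamma1 chain found in most laminins, had line means between 3.15 ± 0.25 (SD, DB#1) and 3.40 ± 0.24 (DB#3), and all 5 lines overlapped in order. It was lower in the myeloid lines, at 1.98 ± 0.25 in M0 and 1.71 ± 0.07 in J365. Lama4, the alpha4 chain known from vessel walls and muscle, lay between 1.82 ± 0.20 (M) and 2.16 ± 0.21 (DB#3) in the melanoma lines, each overlapping with its neighbour, while the end lines M and DB#3 did not overlap. In the myeloid lines Lama4 was not read on any array, and it was at least 72.9-fold higher in the melanoma lines. Its second probe gave the same order of cell types, with melanoma means from 0.00 to 0.30 and no myeloid array above background.

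Nidogen-1, encoded by Nid1, bridges laminin and type IV collagen. Its gene was read on all melanoma arrays and highest in DB#2, at 1.31, 1.27 and 1.34, above all arrays of the other melanoma lines (0.42 to 0.98). The difference of DB#2 from M was 0.64 ± 0.22 (SE), which was called only without scaling between arrays. Nid1 was not read in the myeloid lines, and was at least 31.6-fold higher in the melanoma lines. Both differences rest on its brighter probe. A second Nid1 probe was read on D replicate 3 alone, at -4.47, with means of -6.78 in DB#2 and -6.54 in M. The paralogue Nid2 was read on D replicate 3 alone, at -2.28, the array with by far the most spots above background, while the other D arrays were at -5.69, -4.87 and -5.75. Hspg2, the gene of perlecan, had melanoma means between 1.25 ± 0.39 (SD, M) and 1.97 ± 0.36 (DB#2). Neighbours in order overlapped, while DB#2 and DB#3 did not overlap with M. Hspg2 was lower in M0 (-1.51 ± 0.41) and J365 (-1.30 ± 0.38), by 3.05 ± 0.16 (SE) log2 units. A second Hspg2 probe was dim, read on no M array and on part of those of each other melanoma line. On that probe the differences from M were 1.26 in D, 0.75 in DB#1, 1.21 in DB#2 and 1.05 in DB#3.

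**Figure D3:**
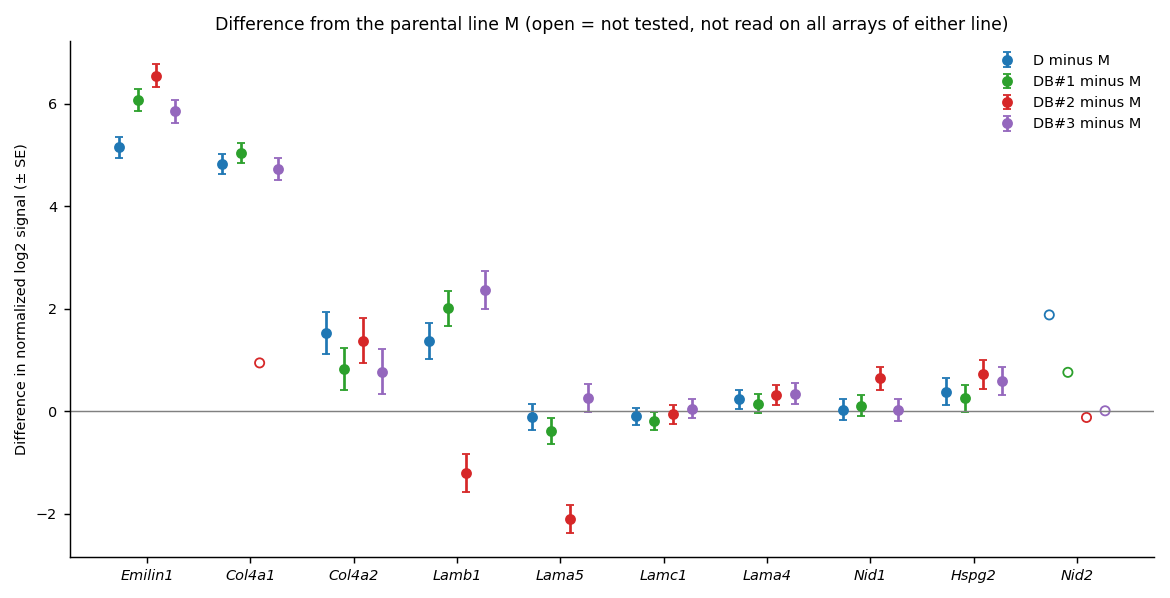
Difference in normalized log2 signal from M (y axis, with the SE from the limma fit) for each member (x axis) in D, DB#1, DB#2 and DB#3, with open points where neither line had the gene read on all arrays. Emilin1 is between 5.15 and 6.55 in all 4 lines, Col4a1 between 4.72 and 5.04 in 3 of them, and the lowest values are those of DB#2 for Lama5 (-2.11) and Lamb1 (-1.21). Emilin1 and Col4a1 were read on no M array, so their differences use a background signal in M and the text gives lower bounds.

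Calls of members can be set beside those of all genes, although the members were picked on these contrasts. Nothing is read from the difference in shares or from how steady the calls were. Emilin1 and Col4a1, read on no M array, entered the tests below through the lines where they were high. With limma's moderated test at an adjusted p under 0.05, a gene being tested where it was read on every array of at least 1 line compared, 4 of 9 members tested (Emilin1, Col4a1, Col4a2 and Lamb1) were called higher in D than in M, where 1.37% of all genes tested were called higher. Without D replicate 3 there were 3, with Col4a2 lost, without D replicate 2 or D replicate 4 there were 3, with Lamb1 lost, and without M replicate 2, M replicate 3 or D replicate 1 there were 2, Emilin1 and Col4a1. Col4a2 was called in 5 of 16 alternatives and Lamb1 in 9 of 16, both being lost without the filter on dim genes and with only the lines compared, while Emilin1 and Col4a1 were called in all 16. In DB#1 the number was 3 of 9 (Emilin1, Col4a1 and Lamb1; 2.05% of all genes), and in DB#3 it was the same 3 of 9 (1.61%). In DB#2 it was 1 of 8, Emilin1 (2.15%), with 1 lower, Lama5 (1.28%). Without M replicate 2 or M replicate 3 Lamb1 was also called in DB#2, and without M replicate 1 Col4a2 was. The 4 comparisons share the M arrays. The median log2 difference of the 10 members from M was 0.87 in D, 0.50 in DB#1, 0.48 in DB#2 and 0.46 in DB#3, against -0.01, 0.04, 0.02 and 0.03 over all genes tested. These sets are unlike, since the member medians include Nid2, which was not tested, and in DB#2 also Col4a1. Among the 9 members tested the middle value was that of Hspg2, at 0.38 in D, 0.25 in DB#1 and 0.58 in DB#3.

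Among the lines recovered from mice, D and the brain-derived lines differed in few members apart from DB#2. DB#3 differed from D in 0 of 9 members tested (0.369% of all genes called). DB#1 was higher than D in 1 of 9, Emilin1, by 0.93 ± 0.19 (SE; 0.386% of all genes called higher), a call made in 8 of 17 alternatives and lost without any 1 of D replicates 1, 2 and 4 and DB#1 replicates 1 and 3 (0.81 without the last). DB#2 was lower than D in 3 of 9 (2.44% of all genes called lower), Col4a1, Lamb1 and Lama5, and higher in 1, Emilin1 (3.9% called higher). Against DB#1 and DB#3 together, DB#2 was lower in the same 3 of 9 (3.43%), at least 10.8-fold for Col4a1, which was not read in DB#2, and by 3.40 ± 0.31 (SE) log2 units for Lamb1 and 2.04 ± 0.23 for Lama5. With slide as a block Emilin1 and Nid1 were also called higher there, at 0.57 and 0.58. Both were called there too with normexp, without scaling and with only the lines compared. Nid1 was also called with quantile normalization and Emilin1 without DB#1 replicate 3. Against D, Nid1 was called higher in DB#2 with slide as a block, quantile normalization, normexp and no scaling. The 3 DB#2 arrays did not overlap with those of D, DB#1 or DB#3 for any of these 5 genes, being lower for Col4a1, Lamb1 and Lama5 and higher for Emilin1 and Nid1.

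Between the myeloid lines no member was called. In J365 against M0, 0 of 5 members tested passed, and 1.47% of all genes were called. Col4a2 had the largest difference in that comparison among those tested, 0.64 ± 0.41 (SE), with overlapping arrays. Between cell types, 7 of 9 members were called higher in the melanoma lines (33.3% of all genes tested) and 1, Lama5, lower (38.5%), so that differences between the cell types were common throughout the array. The call of Col4a2, 0.59 with overlapping arrays, was lost without any 1 of 9 arrays, M replicate 1, DB#1 replicate 1, DB#2 replicate 1, DB#3 replicates 3 and 5, M0 replicates 3 and 4 and J365 replicates 1 and 3 (0.49 without the last).

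Emilin1 and Col4a1 were compared with all other genes over the 17 melanoma arrays to find those with the most similar profile. Among 11880 genes with a symbol that were read on all of these arrays, Fscn1 had the highest Pearson correlation with Emilin1 (0.99; Spearman 0.82), followed by Il13ra1 (0.98), Tmem121 (0.95), Cyba (0.95) and Garem2 (0.94). Fscn1 encodes the actin-bundling protein fascin and Il13ra1 a chain of the interleukin-13 receptor. For Col4a1 the order was Rgs16 (0.97; Spearman 0.80), Adssl1 (0.96), Prkcz (0.95), Adam19 (0.95) and Ak4 (0.95). Rgs16 is a regulator of G-protein signalling, and Adssl1 and Ak4 are enzymes of purine nucleotide metabolism. All 5 genes near Col4a1 were lower in M and DB#2 than in the other lines by their line means. In a wider set of 13242 genes read on all arrays of at least 1 melanoma line, added after the values had been seen, Olfml1 (0.98), Myl9 (0.96) and Pdgfrb (0.96) entered the first 5 for Emilin1, and Megf10 (0.98), Mkx (0.97), Ctf1 (0.96) and Shisa2 (0.96) those for Col4a1, with Megf10 above Rgs16. Since the arrays fall into M and the rest, or M with DB#2 and the rest, these correlations describe that step.

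**Figure D4:**
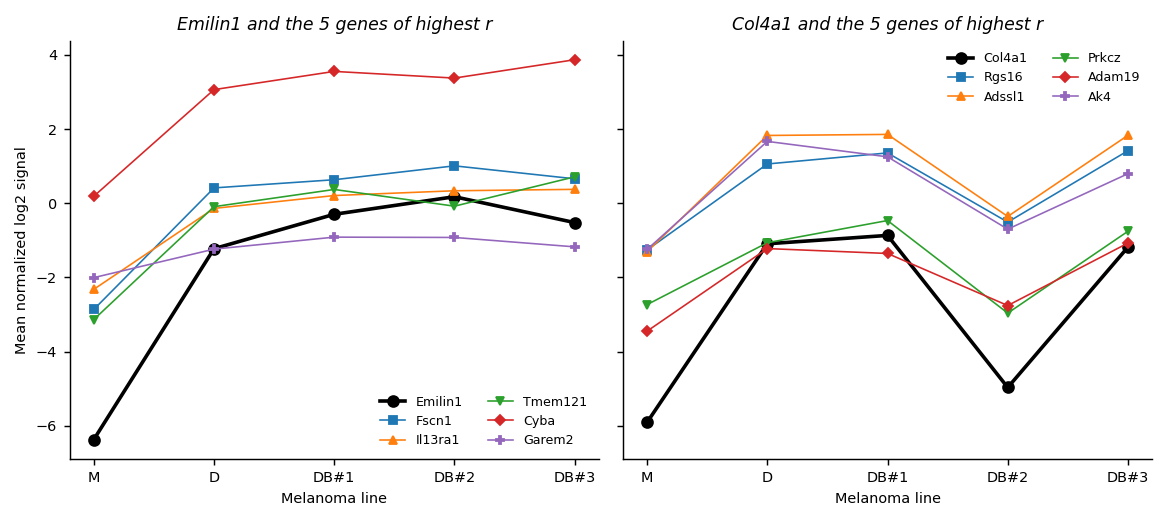
Mean normalized log2 signal (y axis) of Emilin1 (left) and Col4a1 (right) and, among genes read on all 17 melanoma arrays, the 5 with the highest Pearson correlation to each over these arrays, by melanoma line (x axis; the lines joining points only guide the eye). Fscn1 rises from -2.86 in M to between 0.42 and 1.01 elsewhere, and Rgs16 is -1.26 in M, -0.51 in DB#2 and 1.06 to 1.42 in the other lines.

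Counting read and unread arrays gave a second view, chosen after the values had been seen. Emilin1 was 1 of 22 genes with a symbol that were read on no M array and on all arrays of D, DB#1, DB#2 and DB#3, and the set also held Pdgfrb, Myl9, Olfml1 and Ctf1. Col4a1 was 1 of 5 read on all arrays of D, DB#1 and DB#3 and on none of M and DB#2, with Mkx, Mtcl1, Ramp3 and Gm32051.

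Markers of other cells were examined because Pdgfrb, a receptor of fibroblasts and pericytes, was in that set. Pdgfrb had means of -6.32 in M, -2.95 in D, -2.10 in DB#1, -2.79 in DB#2 and -2.46 in DB#3. Of the 8 fibroblast markers 1 was read on all arrays in each of M (Pdgfra), D, DB#1 and DB#3 (Pdgfrb), and 3 in DB#2 (Pdgfrb, Dcn and Col1a1). Dcn was at -1.32 ± 1.10 (SD) in DB#2 and read on 1 other array, D replicate 3. The mean level of the list was -5.64 to -5.22 in M, -5.34 to -3.24 in D, -5.14 to -4.66 in DB#1, -4.82 to -4.65 in DB#2 and -5.45 to -4.77 in DB#3. Col3a1 and Thy1 were read on D replicate 3 alone among the melanoma arrays. Among the 6 endothelial markers Egfl7 was read on all melanoma arrays, with line means of 2.47 (DB#2) to 4.20 (DB#3), and Pecam1 on all but 1 D array, with means of -3.50 to -2.92. Cdh5 and Kdr were read on no melanoma array, and Tek and Emcn on D replicate 3 alone. The endothelial list had a mean level of -4.35 to -4.10 in M, -4.41 to -2.61 in D, -4.35 to -4.08 in DB#1, -4.67 to -4.52 in DB#2 and -4.30 to -4.03 in DB#3. The pericyte and smooth muscle list gave -1.87 to -1.69 in M and -2.24 to -0.30 in D. In the brain-derived lines it gave -2.44 to -1.84. Of this list Rgs5 was read on D replicate 3 alone. Acta2 was read on all melanoma arrays, with line means of 5.22 to 5.44, and so was Cspg4, with means of -1.77 to -1.38. Des was read on all melanoma arrays except part of those of DB#1. Myh11 was read on all M arrays and on part of those of each other melanoma line. Astrocyte, neuron and oligodendrocyte markers gave -2.58 to -2.32 in M, -2.97 to -1.16 in D and -2.94 to -2.02 in the brain-derived lines. Of these 7 genes Mbp, which encodes a myelin protein, differed most between the lines. It was at 2.86 ± 0.23 (SD) in DB#1, 0.72 ± 0.57 in M, 0.74 ± 0.34 in D, 0.27 ± 0.76 in DB#2 and -0.82 ± 0.55 in DB#3. Mbp, Mog, Gfap and Snap25 were read on all melanoma arrays, including those of M. Line means were -1.35 to -1.02 for Mog, 2.03 to 2.32 for Snap25 and -3.71 (DB#1) to -3.03 (DB#3) for Gfap. Aqp4 was read on part of the arrays of D and DB#2 and on all others. Slc1a2 and Rbfox3 were read on 1 D array each and on no brain-derived array. The part of other cells in the Emilin1 and Col4a1 differences was not tested.

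Proteins that surround the members were described with 81 genes in 7 lists, none of them members. Against M, 6.25% of the related genes tested were called in D, 4.17% in DB#1, 4.08% in DB#2 and 0% in DB#3. Of all genes tested, 594 of 20151 were called in D and 765 of 20717 in DB#1. In DB#2 this was 720 of 20963 and in DB#3 569 of 20593. The related shares rest on 3 genes or fewer. Of 48 related genes tested in D against M, 1 rose (1.37% of all genes called higher) and 2 fell (1.58% called lower). P4ha2, a catalytic subunit of prolyl 4-hydroxylase that modifies collagen chains, rose from 1.33 ± 0.30 (SD, n = 3) to 2.19 ± 0.29 (n = 4), a log2 difference of 0.86 ± 0.17 (SE; limma, adjusted p = 0.00572). Tinagl1, a matrix protein, fell by 1.27 ± 0.32 (adjusted p = 0.0313, limma). Fbln5, the elastic fibre protein fibulin-5, fell by 1.13 ± 0.29 (adjusted p = 0.0332, limma), with overlapping arrays. Without M replicate 3 none of the 3 was called (0 of the related genes), without M replicate 1, M replicate 2 or D replicate 4 P4ha2 was the 1 related gene called, and without D replicate 3 the called genes were P4ha2 and Npnt.

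In DB#1 against M, 48 related genes were tested and P4ha2 and Tinagl1 were the 2 called. P4ha2 rose by 0.94 ± 0.17 (SE; adjusted p = 0.00185, limma; 2.05% of all genes called higher). Tinagl1 fell by 1.64 ± 0.32 (adjusted p = 0.00305, limma; 1.65% of all genes called lower). In DB#2 against M the 2 of 49 called were integrin chains, 1 higher (2.15% of all genes called higher) and 1 lower (1.28% called lower). Itga4, a chain of receptors for fibronectin and EMILIN-1, rose by 0.77 ± 0.21 (adjusted p = 0.0399, limma), from 3.77 ± 0.14 (SD) to 4.54 ± 0.13. Itga1, a chain of the collagen receptor, fell by 1.40 ± 0.32 (adjusted p = 0.0141, limma). Neither was called (0) without M replicate 2, M replicate 3, DB#2 replicate 1 or DB#2 replicate 3, and without M replicate 1 or DB#2 replicate 2 Itga1 was the 1 called. In DB#3 against M 0 of 49 passed with limma, where 1.61% of all genes were called higher and 1.15% lower. Of these 49, 7 had an unadjusted p under 0.05, and with slide as a block 0 were called as well.

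By list, the 4 comparisons with M ran as follows. Of the 15 genes for the synthesis and cross-linking of type IV collagen 13 were tested in each, and P4ha2 was called in D and DB#1. The list includes Serpinh1, the collagen chaperone, whose means stayed between 5.83 and 6.27 in the melanoma lines, and Pxdn, the peroxidasin that cross-links type IV collagen, which was read on no array. Of the 16 receptors of laminin, type IV collagen and EMILIN-1 14 or 15 were tested, and those called were the integrin chains in DB#2. Among the 16 other basement membrane proteins 6 were tested and Tinagl1 was called, in D and DB#1. Of the 10 genes of the EMILIN family and its elastic fibre partners 3 or 4 were tested, with Fbln5 called in D. No call was made among the 2 of 4 other type IV collagen chains, the 1 of 7 other laminin chains and the 9 of 13 proteases and inhibitors that were tested (0 in each list and comparison, limma). The median difference of all related genes tested was -0.17 in D, -0.08 in DB#1, -0.01 in DB#2 and 0.02 in DB#3. In J365 against M0 0 of 27 related genes were called with limma (1.47% of all genes called), 4 had an unadjusted p under 0.05, and 2 were called with slide as a block.

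**Figure D5:**
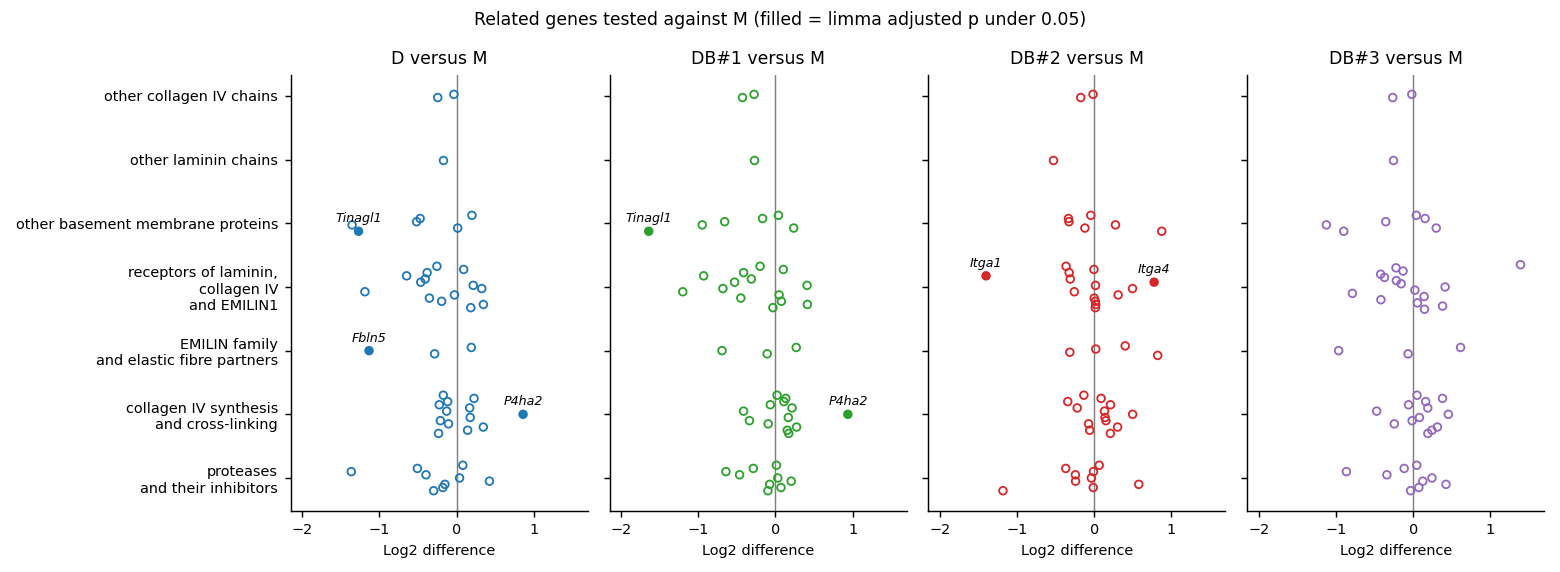
Log2 difference from M (x axis) of each related gene tested, by list (y axis), in D, DB#1, DB#2 and DB#3, with filled points at a limma adjusted p under 0.05. The filled points are P4ha2, Tinagl1 and Fbln5 in D, P4ha2 and Tinagl1 in DB#1 and Itga1 and Itga4 in DB#2, and DB#3 has none.

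Melanoma and myeloid lines differed in 53 of 55 related genes tested, 40 higher and 13 lower in the melanoma lines. In the same comparison 33.3% of all genes tested were called higher and 38.5% lower, so such calls were common throughout the array. Of the 53, Serpinh1 was at least 1251-fold and Fbln5 at least 490-fold higher (limma, adjusted p = 1.32e-24 and 2.36e-22). All melanoma lines are B16F1 lines. The p-values therefore measure spread between arrays of a line, not between independent melanomas or myeloid lines. Timp1, an inhibitor of matrix metalloproteinases, was higher by 4.26 ± 0.14 (SE) and the collagen receptor Ddr1 by 3.20 ± 0.11 (limma, adjusted p = 8.07e-17 and 5.3e-16). These genes were read on every array of both cell types, as were Itga6 (1.49) and Crtap (1.34), and many genes not read on all myeloid arrays differed by more, the median of the related genes tested being 2.98. Itgb4, which pairs with Itga6 in a laminin receptor, was lower by 4.35 ± 0.12 (limma, adjusted p = 4.88e-18). Among collagen-modifying enzymes P4ha1 was lower by 1.86 ± 0.27, P3h1 by 1.12 ± 0.17 and Loxl2 by 0.99 ± 0.25, each with overlapping arrays. By list, the counts higher and lower were 2 and 0 of 2 other type IV collagen chains, 1 and 1 of 2 other laminin chains, 6 and 2 of 8 other basement membrane proteins, 13 and 2 of 15 receptors, 3 and 1 of 5 EMILIN and elastic fibre genes, 6 and 6 of 13 collagen synthesis genes and 9 and 1 of 10 proteases and inhibitors. Emilin2, the paralogue of Emilin1, is named here after its values were seen: it had means of 8.34 in M0 and 8.17 in J365 and was read on 1 melanoma array, D replicate 3.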

How the data were processed

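Total RNA of 24 samples of 7 lines was labelled with cyanine 3 and hybridized to Agilent 8 x 60k mouse arrays. The authors scanned the arrays and extracted them with Agilent Feature Extraction 10.7.3.1. The deposited intensity, gProcessedSignal, is linear and background-corrected by that software, and their value table repeats it, with 1511424 of 1511424 values equal. Scaling after extraction and the test used for the arrays are not given in the sources used here.

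Of 56605 probes, 117 with outlier spots were left out. Spots of a probe were averaged, and log2 of the deposited intensity minus the 75th percentile of the array was used. A probe was named through its RefSeq accession (GRCm38.p6 gene table), and the probe brightest on average stood for its gene. A gene counted as read on an array where any of its probes was well above background. Lines were compared with limma 3.58.1 (R 4.3.3) in 1 fit to all 24 arrays, with each line as a group and 17 residual degrees of freedom. Genes read on every array of at least 1 line compared were tested, with Benjamini-Hochberg adjustment within the comparison and a threshold of 0.05. The fit was tested on simulated data. P-values measure the spread between arrays of a line, which may be technical.

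The members, lists and tests were chosen with earlier results of these data known. The text names all members, in each comparison up to 4 called related genes per direction by size among those read on every array compared, up to 2 by bound among those read on all arrays of 1 side and none of the other, and, among genes read on all 17 melanoma arrays, the 5 most correlated with Emilin1 and with Col4a1. Other genes named were chosen after their values were seen. Alternatives were quantile normalization, normexp (offset 50, on median spot and background signals, since mean spot signals were not used here), other scaling, no filter, mean over probes, slide and replicate number as blocks, only the lines compared, and leaving out each array.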

Additional observations from a re-analysis of the deposited data

Results flagged for a closer look

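An array lay far from the others of its line in 3 of 45 groups of 4 arrays examined for the members and the named related genes, and chance gives about 1 in 20. Lamb1 was 2.48 on DB#1 replicate 1, with the nearest other array at 1.60. Nid2 was -6.10 on M0 replicate 1, with the nearest at -6.34 and all of them below background. P4ha2 was 1.76 on D replicate 3, the array with the most spots above background, with the nearest other at 2.32.

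Lamb1 lay on opposite sides of M, with log2 differences of 2.01 in DB#1 and 2.37 in DB#3, both called, and of -1.21 in DB#2, which was not called and was -0.54 without M replicate 1. None of the arrays of these lines overlapped with M. The difference between these changes was not tested, and on the next brightest probe DB#2 overlapped with M.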

How the results depend on the processing

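Of 1780 member differences recomputed under the alternatives, 0 reversed among called values and 46 moved by over 1 SD. With normexp the Emilin1 and Col4a1 differences of D from M were 1.75 and 1.74, the offset raising the dim side. Counts of related genes called were less steady. For D against M there were 5 with quantile normalization and 1 each without scaling, without the filter and with only the arrays compared. For DB#1 there were 4 each with quantile normalization, the mean over probes, slide as a block and only the arrays compared. DB#2 gave 1 with quantile normalization and with only the arrays compared, and 5 without scaling. DB#3 gave 1 with quantile normalization, with the percentile over detected probes and without the filter. J365 against M0 gave 3 with quantile normalization, 2 with the percentile over detected probes, without scaling and with slide as a block, and 1 without the filter and with the mean over probes. Leaving out 1 array gave 0 to 3 for D, 2 for DB#1, 0 to 1 for DB#2, DB#3 (1 without DB#3 replicate 4) and J365 against M0 (1 without M0 replicate 4), and 51 to 54 between the cell types. The cause was not tested. Without scaling the median of all genes shifted to 0.17 in D, 0.11 in DB#1 and 0.25 in DB#2 against M and to 0.17 in J365 against M0. The calls higher then numbered 407 of 547 in D (276 of 594 with scaling), 1122 of 1255 in DB#2 (451 of 720) and 258 of 372 in J365 (149 of 304). They were 879 of 1209 for DB#2 against D (806 of 1310), 18 of 60 for DB#3 against D (48 of 74) and 1968 of 2271 for DB#2 against DB#1 and DB#3 (790 of 1519). With the percentile over detected probes they were 521 of 993 for DB#2 against M, 885 of 1911 for DB#2 against D and 35 of 76 for DB#3 against D. For DB#1 and DB#3 against D, quantile normalization gave 91 of 99 and 57 of 69 and normexp 79 of 83 and 50 of 59, against 78 of 96 and 48 of 74. Replicate numbers did not pair the arrays, since 23 of 49 same-number pairs had a correlation over 0.1 (-0.80 to 0.91). Those on the same slide were all positive, at 0.30 to 0.91, and every negative one was between slides. The main fit had no slide term, and slide as a block was an alternative. With replicate number as a block 4 related genes were called in D, 2 in DB#1, 2 in DB#2, 0 in DB#3, 0 in J365 and 52 between cell types. The lowest signal above background lay between -4.76 and -3.51 by array, and differences to such lines are bounds, with 3 or 4 arrays per line.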
